A study of Homo sapiens with 6 samples.

Results

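The primary granule genes are 10 genes picked by name from the 35042 named rows of the expression table, each found as 1 row. They were listed as genes of azurophil (primary) granule proteins of promyelocytes, though not all are best known from these granules. All carry a gene symbol that matched exactly. RNA-seq had been run on the cell line THP-1, labelled wild type, which was derived from a human acute monocytic leukaemia. There were 3 untreated libraries and 3 libraries of cells given PMA, a protein kinase C activator of the phorbol ester class that pushes THP-1 cells toward a macrophage state. For these libraries, dose and duration of PMA are not stated in the sources used. All libraries came from 1 cell line. The study's legends describe the RNA-seq replicates as independent experiments, the sample labels do not say what separated them, and p-values measure the spread between these libraries.

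Azurophil granules form early in granulocyte and monocyte development. Their serine proteases are made as inactive precursors, activated by cathepsin C, and stored on the sulphated sugar chains of the proteoglycan serglycin. Transcription of the serine protease genes and of MPO is known to depend on MYB, RUNX1, PU.1 and C/EBP factors. For these genes it normally stops as cells mature, so that mature cells carry the protein without its mRNA. Of the 10 genes, ELANE (neutrophil elastase), PRTN3 (proteinase 3), CTSG (cathepsin G) and AZU1 (azurocidin, a relative that has lost protease activity) form the serine protease family. MPO encodes myeloperoxidase, LYZ lysozyme, and SRGN serglycin. RNASE2 (eosinophil-derived neurotoxin) and PRG2 (major basic protein) are better known from eosinophil granules. CST7 encodes cystatin F, an inhibitor of cathepsin C and other cysteine cathepsins.

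The promoters of 4 of the 10 genes were taken from the RefSeq table (GRCh38.p14), each 250 bases before and 50 bases after the annotated start. These 4 were all that the table used held, with no entry for ELANE, MPO, LYZ, SRGN, PRG2 and CST7. The 4 genes were thus not chosen by their change, though all fell after PMA. Their promoters are shown for the letters of factors of this lineage. Capitals mark matches, on either strand, to TTGCNNAA (C/EBP), GAGGAAG (ETS factors such as PU.1) and CAACNG (MYB). TTGCGCAAT (C/EBP), TAACNG (MYB), the RUNX letters TGTGGT and the AP-1 letters TGANTCA were searched too and had no match in these windows. Neither had the core promoter letters TATAAA.
PRTN3, chr19:840749-841048, plus strand: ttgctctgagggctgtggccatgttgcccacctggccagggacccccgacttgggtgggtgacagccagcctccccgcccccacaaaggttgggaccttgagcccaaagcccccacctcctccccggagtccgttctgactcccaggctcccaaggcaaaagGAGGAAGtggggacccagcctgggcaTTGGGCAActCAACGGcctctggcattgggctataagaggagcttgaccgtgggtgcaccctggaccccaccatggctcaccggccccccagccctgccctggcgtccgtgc
AZU1, chr19:827587-827886, plus strand: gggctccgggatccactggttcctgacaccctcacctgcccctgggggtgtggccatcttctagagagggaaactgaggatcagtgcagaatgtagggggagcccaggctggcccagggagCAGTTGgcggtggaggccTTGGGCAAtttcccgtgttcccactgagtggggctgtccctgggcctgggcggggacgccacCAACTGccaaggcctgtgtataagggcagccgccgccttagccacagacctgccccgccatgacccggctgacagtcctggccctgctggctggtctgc
CTSG, chr14:24576201-24576500, minus strand: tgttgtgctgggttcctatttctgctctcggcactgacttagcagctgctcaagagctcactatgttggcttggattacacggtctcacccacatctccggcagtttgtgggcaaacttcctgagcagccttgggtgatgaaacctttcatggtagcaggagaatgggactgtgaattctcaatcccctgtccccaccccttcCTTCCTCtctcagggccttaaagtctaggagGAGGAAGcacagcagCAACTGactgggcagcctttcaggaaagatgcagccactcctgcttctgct
RNASE2, chr14:20955237-20955536, plus strand: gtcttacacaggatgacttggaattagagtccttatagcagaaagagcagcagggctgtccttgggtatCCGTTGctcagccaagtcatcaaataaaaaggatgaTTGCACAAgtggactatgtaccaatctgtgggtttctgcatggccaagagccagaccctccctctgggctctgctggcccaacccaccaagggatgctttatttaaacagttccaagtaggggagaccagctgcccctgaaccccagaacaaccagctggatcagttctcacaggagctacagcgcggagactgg
The MYB letters CAACNG were in all 4 windows and in 32.9% of the 35116 promoters of the table. The C/EBP letters TTGCNNAA were in 3 of the 4 (PRTN3, AZU1 and RNASE2) and in 10.5% of all promoters. PRTN3 and AZU1, which are related and lie side by side, held the same match (TTGGGCAA), so they are not independent cases. GAGGAAG was in PRTN3, 88 bases before the start, and in CTSG at both 47 and 16 bases before the start, against 13.6% of all promoters. In PRTN3 the C/EBP match began 62 bases and the MYB match 52 bases before the start, so that both lie within a short stretch. In AZU1 the C/EBP match began 111 bases before the start, between MYB matches at 129 and 49 bases. The RefSeq window of AZU1 lies inside the gene as the authors' table places it, from 825097 to 832018. These matches describe letters and were not tested for binding.

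In untreated cells the members fell into an abundant and a near-silent class. SRGN, PRTN3, ELANE, RNASE2, AZU1 and CTSG were each above 50 FPKM (fragments scaled to transcript length and library size, the authors' unit, which allows levels of different genes to be compared). LYZ, MPO, CST7 and PRG2 were below 2 FPKM in both groups. SRGN ranked 28th and PRTN3 38th of all named rows by mean FPKM without PMA, and ELANE ranked 59th. The order was SRGN, PRTN3, ELANE, RNASE2, AZU1, CTSG, LYZ, MPO, CST7 and PRG2. Neighbours in that order did not overlap between libraries except CST7 and PRG2. After PMA the order was SRGN, RNASE2, ELANE, PRTN3, AZU1, CTSG, PRG2, LYZ, CST7 and MPO. There ELANE, PRTN3 and AZU1 overlapped in turn, as did PRG2 with LYZ and CST7 with MPO.

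**Figure D1:**
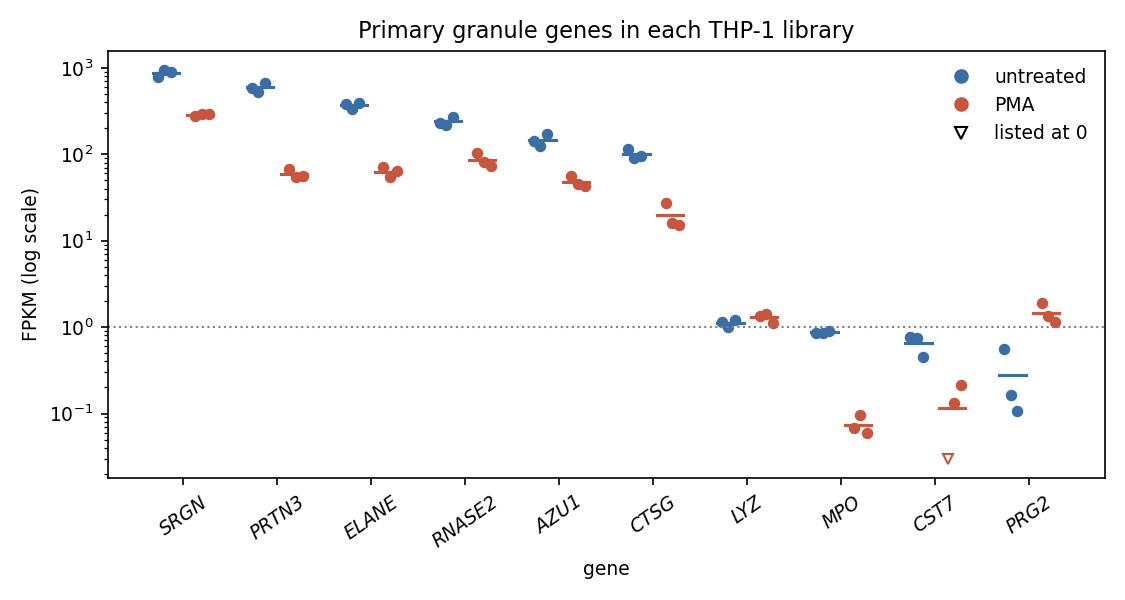
FPKM of the 10 genes in each library on a log scale. Points are libraries (3 untreated, 3 PMA), short lines are group means, the dotted line is the minimum of 1 FPKM, and an open triangle stands for the PMA library in which CST7 was listed at 0. The 6 abundant genes were lower in every PMA library than in any untreated library.

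The test of each gene was edgeR's quasi-likelihood test on the estimated counts of all 6 libraries. It covered 12947 genes with at least 1 FPKM in at least 3 libraries, with Benjamini-Hochberg adjustment over them. Of the 10 members, 8 passed that minimum. Of these 8, 6 were lower after PMA at an adjusted p under 0.05, 1 was higher and 1 was not called. Over all genes tested, 65.5% were called in either direction, 32.8% lower and 32.7% higher. The median log2 fold change was −1.58 for the 8 members and −0.01 for all genes tested. In the FPKM values, 9 of the 10 members did not overlap between the groups, 8 lower and 1 higher. Among the 8 tested members these were the 6 abundant ones, lower, and PRG2, higher, while LYZ overlapped. PRG2 reached the minimum through the PMA libraries alone. Of all genes tested, 70.4% did not overlap, 36.7% lower and 33.7% higher. MPO and CST7, both lower, were under the minimum and so outside that share. In bulk RNA, fewer cells that express a gene and less RNA per cell cannot be told apart.

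PRTN3 fell most among the abundant members. This protease cleaves matrix and cytokines and is an autoantigen in vasculitis. It lies on chromosome 19 of hg38 from 840999 to 848175. Its FPKM was 584, 524 and 672 without PMA and 66.8, 54.3 and 55.4 after it. The lowest untreated value was far above the highest PMA value. Its log2 fold change was −3.30 (standard error 0.14, edgeR adjusted p = 7.69e-07), a fold of 9.86, and 24 of the genes tested had a lower one. Its rank by FPKM went from 38 to 501.

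ELANE, the elastase that is mutated in cyclic and severe congenital neutropenia, lies on the same chromosome from 851014 to 856247. Its FPKM was 376, 337 and 394 without PMA and 70.9, 54.5 and 63.5 with it. The groups were well apart, with little spread in either. The log2 fold change was −2.52 (standard error 0.12, edgeR adjusted p = 1.57e-06), and 45 tested genes had a lower one.

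CTSG, a chymotrypsin-like protease on chromosome 14 (24573518 to 24576250), is in no cluster with the other members. It was at 116, 90.0 and 94.2 FPKM in untreated cells and at 27.6, 15.9 and 15.3 in PMA-treated cells. PMA replicate 1 stood above the other PMA libraries, which were close to each other. The log2 fold change was −2.32 (standard error 0.24, edgeR adjusted p = 6.85e-05), and without PMA replicate 1 it was −2.57.

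AZU1, an antibacterial protein that attracts monocytes, had 141, 125 and 173 FPKM without PMA and 55.8, 45.0 and 42.6 with it. The groups did not overlap, but its fall was smaller than those of PRTN3 and ELANE. The log2 fold change was −1.59 (standard error 0.16, edgeR adjusted p = 6.03e-05).

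The summed FPKM of ELANE, PRTN3, CTSG and AZU1 was 1217, 1076 and 1334 in untreated cells and 221, 170 and 177 in PMA-treated cells. The group means of 1209 ± 129 and 189 ± 27.9 (SD, n = 3) were in a ratio of 6.39. A two-sided exact permutation test over libraries gave p = 0.1, and no lower p is possible with 3 against 3. As a share of all estimated counts these 4 genes took 0.149%, 0.131% and 0.163% without PMA and 0.0294%, 0.0225% and 0.0230% with it.

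SRGN, the proteoglycan core that holds proteases, histamine and cytokines in granules, remained the most abundant member in every library. It lies on chromosome 10 from 69088103 to 69104805. Its FPKM was 788, 938 and 882 in untreated cells and 277, 295 and 289 in PMA-treated cells. The PMA libraries lay within a narrow range below all untreated ones. The log2 fold change was −1.56 (standard error 0.09, edgeR adjusted p = 2.83e-06), and its rank by FPKM went from 28 to 58.

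RNASE2, a ribonuclease with antiviral activity on chromosome 14 (20955487 to 20956436), had 229, 217 and 273 FPKM without PMA and 104, 81.5 and 73.5 with it. Its groups did not overlap, at a log2 fold change of −1.44 (standard error 0.15, edgeR adjusted p = 9.13e-05). Its close paralog RNASE3, eosinophil cationic protein, was at 1.83 ± 0.684 and 0.728 ± 0.258 FPKM (SD, n = 3) and fell by 1.28 on the log2 scale (standard error 0.40, edgeR adjusted p = 0.0213), but it passed the minimum through the untreated libraries alone. The related pseudogene RNASE2CP went from 37.2 to 15.5 FPKM, a log2 difference of −1.23 (standard error 0.14, edgeR adjusted p = 0.000105). How the counting treated reads that match more than 1 of these related genes is not stated, so their separate levels are uncertain.

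The near-silent members showed other patterns. MPO, the peroxidase that makes hypochlorous acid and whose mRNA marks promyelocytes, was at 0.860, 0.847 and 0.909 FPKM in untreated cells, from 314, 343 and 257 estimated counts. In PMA-treated cells it had 22, 29 and 18 counts, or 0.0686, 0.0950 and 0.0594 FPKM. Both the untreated and the PMA values were tight, and the groups were far apart. MPO was under the FPKM minimum, so it was tested only in a fit with no filter on low values, where its log2 fold change was −3.61 (standard error 0.28, edgeR adjusted p = 4.73e-05) and 14.6% of 35042 genes were called lower. LPO, the gene of lactoperoxidase, lies on the other strand and ends 1.34 kb from the end of MPO. It was at 2.00 and 0.678 FPKM and fell by 1.51 on the log2 scale (standard error 0.15), but passed the minimum through the untreated libraries alone. The use of strand in counting is not stated, so reads that run between converging genes cannot be told apart.

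CST7 had 57, 61 and 26 estimated counts without PMA and 0, 8 and 13 with it. The groups did not overlap, but the counts were few and spread widely. In the fit with no filter its log2 fold change of −2.60 (standard error 0.95, edgeR adjusted p = 0.0825) did not pass. DESeq2 called it lower (adjusted p = 0.0146), as did edgeR without PMA replicate 1, the library at 0 (−2.02, adjusted p = 0.0340). The adjusted p ranged from 0.0146 to 0.175 over all settings run, so this gene was not measured well enough for a call.

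LYZ, a muramidase that monocytes and macrophages usually express in quantity, was near the FPKM minimum in all 6 libraries. It had 1.16, 0.990 and 1.20 FPKM without PMA and 1.36, 1.41 and 1.11 with it, from 129 to 165 estimated counts per library. The groups overlapped, and the log2 fold change of 0.24 (standard error 0.21, edgeR adjusted p = 0.334) did not pass. The two-sided exact permutation test of its FPKM gave p = 0.3.

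PRG2 was the only member called higher. It had 0.560, 0.164 and 0.108 FPKM without PMA, from 86, 28 and 14 counts, and 1.88, 1.35 and 1.14 with it, from 238, 166 and 143 counts. Untreated replicate 1 was 5.19 times the lowest untreated library, and PMA replicate 1 was the highest PMA library. The log2 fold change was 2.39 (standard error 0.54, edgeR adjusted p = 0.00517), and 3.35 without untreated replicate 1. PRG2 reached the FPKM minimum through the PMA libraries alone, so it could enter the test only as a gene higher after PMA. Without any 1 of the PMA libraries it was not tested. In the fit with no filter the call (2.25, edgeR adjusted p = 0.0209) was lost without each PMA library in turn and without untreated replicate 2 or 3 (adjusted p from 0.0504 to 0.0764). An unnamed feature on the same strand, ENSG00000254979, overlaps PRG2 and reaches the next gene, SLC43A3. That feature was at 0.363 ± 0.0742 FPKM without PMA and 0.897 with it, highest in PMA replicate 1 (1.27), and its part in the PRG2 values was not tested. Of 18 genes of eosinophils, basophils and mast cells, 13 were in the table and 2 passed the minimum, RNASE3 and GATA2, both lower, RNASE3 through the untreated libraries alone. Their summed FPKM was 15.5 to 16.8 without and 11.8 to 12.6 with PMA, and EPX (eosinophil peroxidase) and PRG3, the paralog beside PRG2, were under 0.2 FPKM.

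**Figure D2:**
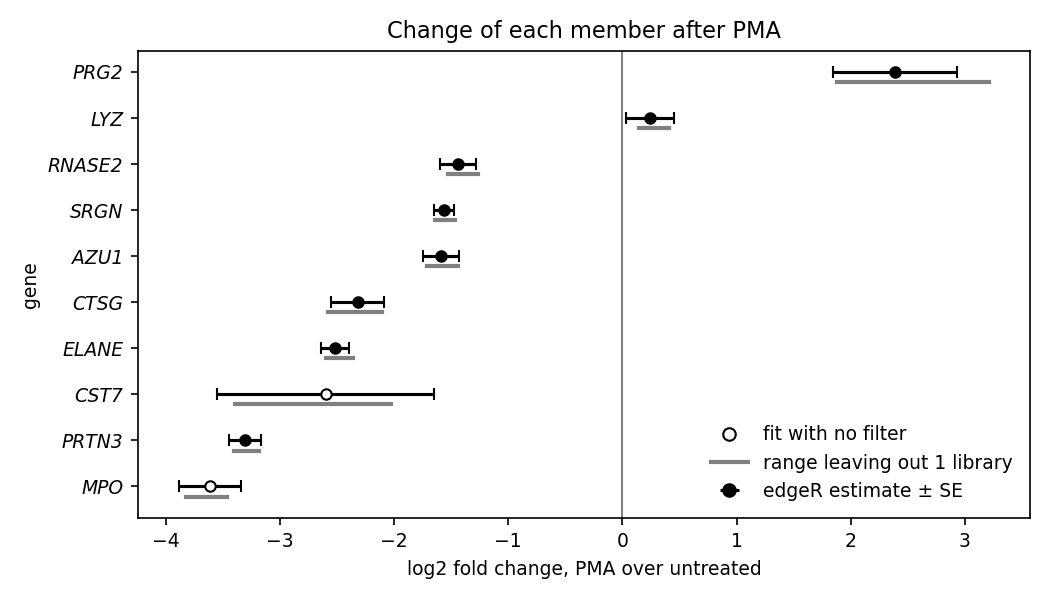
Log2 fold change (PMA over untreated) of each gene with its standard error from edgeR. Open circles are the 2 genes tested only with no filter on low values, and grey bars give the range over fits that leave out 1 library at a time (with no filter for PRG2, MPO and CST7). The 6 abundant genes lie between −3.30 and −1.44, with grey bars that stay below 0.

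**Figure D3:**
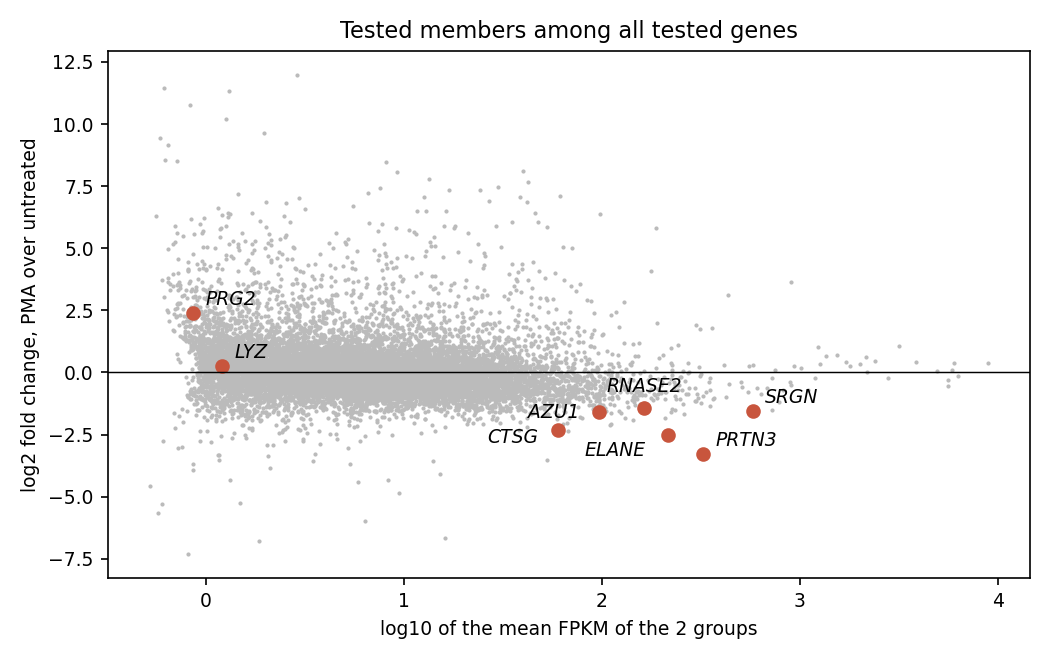
Log2 fold change of each of the 12947 tested genes (grey) against the log10 of its mean FPKM, with the 8 tested members in red. The 6 abundant members lie to the right and below 0, LYZ near 0 at the left, and PRG2 above 0 at the left.

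Within each library the ratio between members is free of the scaling of that library. The FPKM ratio of PRTN3 to its neighbour ELANE was 1.55, 1.55 and 1.71 in untreated cells and 0.942, 0.997 and 0.872 in PMA-treated cells. PRTN3 was thus above ELANE in every untreated library and below it in every PMA library. The ratio of PRTN3 to AZU1 went from between 3.88 and 4.18 to between 1.20 and 1.30. In contrast, the ratio of AZU1 to SRGN changed by −0.02 on the log2 scale and overlapped (exact permutation test, two-sided p = 1.0). The ratio of RNASE2 to SRGN changed by 0.12 and that of ELANE to CTSG by −0.16, and both overlapped too. Of the 15 ratios among the 6 abundant members, 10 did not overlap between groups. Each of these had an exact permutation p = 0.1, the smallest possible, and 0.15 after adjustment over the 15 ratios, so none passed. The share of ratios of other gene pairs that do not overlap was not computed. Among single genes tested, 70.4% did not overlap, so the count of ratios cannot be read as particular to the members. PRTN3 made up 26.1%, 23.4% and 27.0% of the summed FPKM of the 10 genes without PMA and 9.89% to 11.0% with it. SRGN made up 35.2%, 42.0% and 35.4% without and 45.7%, 53.7% and 53.4% with PMA.

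**Figure D4:**
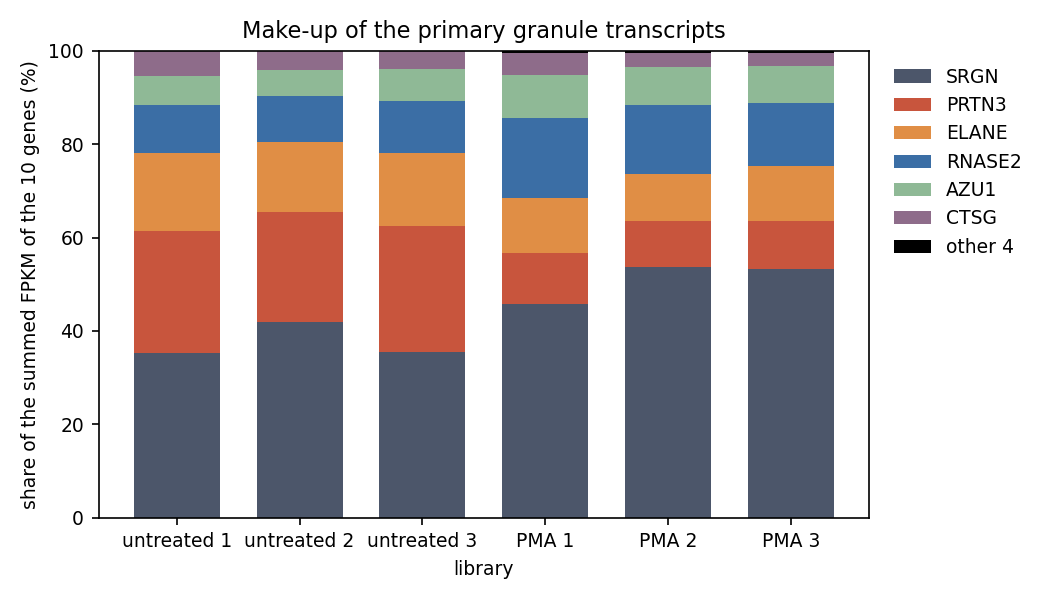
Share of each gene in the summed FPKM of the 10 genes, by library, in percent. Each bar adds up to the whole. PRTN3 takes 23.4% to 27.0% of the untreated bars and 9.89% to 11.0% of the PMA bars, and SRGN takes more of every PMA bar than of any untreated bar.

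Untreated replicate 2 was the lowest untreated library for PRTN3, ELANE, CTSG, AZU1 and RNASE2 and the highest for SRGN. In 4 of the 6 the highest untreated library was replicate 3, which also had the largest mitochondrial share of counts (7.45%, against 4.33% and 4.46%). In 5 of the 6 the highest PMA library was replicate 1, and for SRGN it was the lowest. Leaving out either library kept all 6 calls.

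AZU1, PRTN3 and ELANE lie in a row on the plus strand of chromosome 19, with 8.98 kb between AZU1 and PRTN3 and 2.84 kb between PRTN3 and ELANE. Tested genes beside them also moved. PLPPR3, a membrane protein related to lipid phosphatases that lies on the other strand 3.14 kb before AZU1, went from 75.0 to 26.9 FPKM, a log2 fold change of −1.45 (standard error 0.13, edgeR adjusted p = 3.28e-05). This gene shares the alias PRG2 with the eosinophil gene, but the 2 rows have separate identifiers. CFD, complement factor D, begins 3.21 kb after ELANE and fell by 0.60 on the log2 scale (standard error 0.11). PTBP1, a splicing regulator, fell by 0.58 (standard error 0.07) and MED16, a Mediator subunit, by 0.28 (standard error 0.08). R3HDM4 had 0.14 (standard error 0.10) and did not pass, and ARID3A, a DNA-binding factor, rose by 0.29 (standard error 0.08). The log2 fold changes were thus lowest at PRTN3 and ELANE and nearer to 0 on both sides. Within 100 kb of the 10 members, 28 other genes were tested, of which 16 were lower, 3 higher and 9 not called, at a median of −0.48. Over all genes tested, 32.8% were lower and 32.7% higher, at a median of −0.01. Whether genes near members differ from the rest was not tested. Within 50 kb of the members outside chromosome 19, YEATS4 beside LYZ fell by 0.70 and METTL17 beside RNASE2 by 0.73. Beside CST7, APMAP fell by 0.46 and ACSS1 by 0.62. TSPOAP1 near MPO rose by 0.73. TSPOAP1-AS1 (0.18) and MIR142HG (0.48) near MPO, VPS26A (0.22) and KIFBP (−0.22) near SRGN, and SLC43A3 beside PRG2 (0.13) did not pass.

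**Figure D5:**
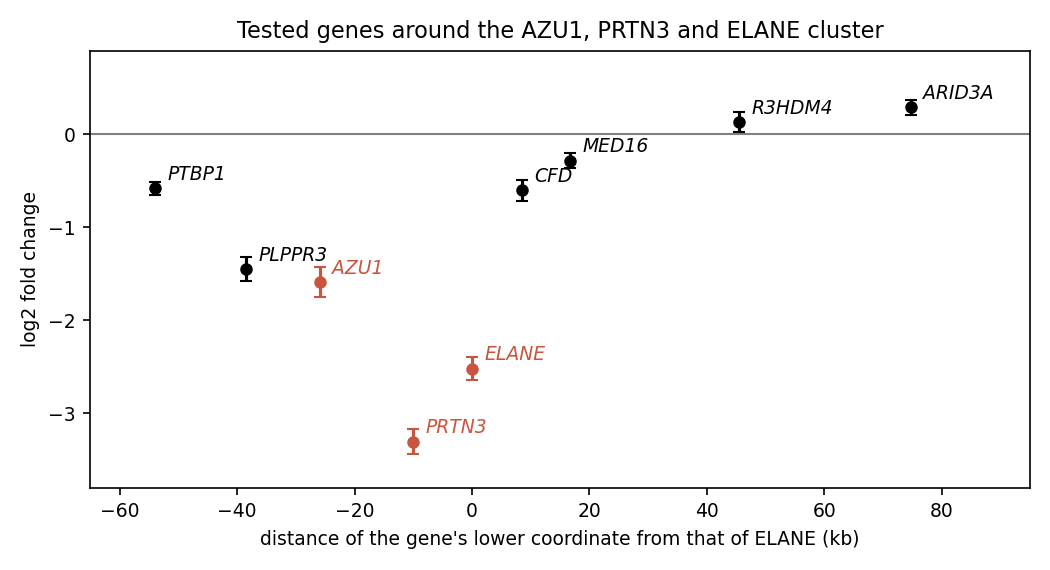
Log2 fold change with its standard error of each tested gene within 100 kb of ELANE, against the distance in kb of the gene's lower coordinate from that of ELANE. Members are red. PRTN3 (−3.30) and ELANE (−2.52) are lowest, AZU1 and PLPPR3 follow, and the outer genes lie between −0.60 and 0.29.

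Of 21 enzymes and inhibitors listed for the maturing or holding back of granule proteases, 13 were tested, 3 were higher, 4 lower and 6 not called. Among all genes tested, 32.7% were higher and 32.8% lower. The list also holds inhibitors with other targets, so its counts are not of inhibitors of the serine proteases alone. Cathepsin C itself, the activator of the serine proteases, was at 4.78 ± 0.126 and 4.57 ± 0.117 FPKM (SD, n = 3), which gave −0.03 on the log2 scale (standard error 0.07, edgeR adjusted p = 0.723). A2M, a broad protease trap, rose by 6.89 (standard error 0.24) and CTSL, cathepsin L, by 3.03 (standard error 0.15). A2M passed the FPKM minimum through the PMA libraries alone, with 0.303 to 0.588 FPKM without PMA and 51.7 to 56.1 with it. SERPINB2, an inhibitor of urokinase, fell by 5.99 (standard error 0.39), and SERPINB8 fell by 0.83 (standard error 0.08). SERPINB2 passed the minimum through the untreated libraries alone. SERPINB1, an inhibitor of elastase, proteinase 3 and cathepsin G, was at 4.84 and 5.78 FPKM and did not pass.

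Of 31 genes for building the sugar chains of proteoglycans, serglycin among them, 27 were tested. Of these, 16 were higher, 5 lower and 6 not called, at a median log2 fold change of 0.50. XYLT1, which starts the chain, rose by 2.23 (standard error 0.08) and UST, a uronyl sulphotransferase, by 2.04 (standard error 0.11). XYLT2, the other gene for that first step, went from 6.90 to 5.60 FPKM. It was called lower, by 0.27 (standard error 0.10, edgeR adjusted p = 0.0453). CHST14 fell by 0.54 (standard error 0.10) and B4GALT7 by 0.46 (standard error 0.13). Of 19 genes listed for granule and lysosome sorting, 18 were tested, 4 were higher, 5 lower and 9 not called. The list also holds genes with other roles, so these counts are not of sorting genes alone. RAB27A, a GTPase of granule release, fell by 1.28 (standard error 0.07). SLC37A4, which is not itself a sorting gene, fell by 1.21 (standard error 0.11). IGF2R, a sorting receptor for lysosomal enzymes, rose by 0.85 (standard error 0.09) and VPS13B by 0.84 (standard error 0.08).

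Of 16 other contents of primary granules, 12 were in the table and 10 tested, of which 7 were higher, 1 lower (RNASE3) and 2 not called (GUSB and GAA), at a median of 0.56. Most of these are hydrolases and membrane proteins that lysosomes share. ARSB rose by 1.89 (standard error 0.19), CTSD, cathepsin D, by 1.18 (standard error 0.14), and CD63, a granule membrane protein, by 1.08 (standard error 0.13), from 56.8 to 118 FPKM. PRSS57, a further serine protease of these granules, and BPI, a permeability-increasing protein, were under 0.2 FPKM in both groups.

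Of 21 transcription factors tied to granule genes, 19 were tested, 10 were higher, 4 lower and 5 not called. MYB had 99.1, 114 and 118 FPKM without PMA and 48.6, 61.5 and 60.8 with it, and fell by 0.92 (standard error 0.12, edgeR adjusted p = 0.000234). MYC fell by 1.83 (standard error 0.08). SPI1, which encodes PU.1, was at 99.8 and 124 FPKM and rose by 0.34 (standard error 0.08). RUNX1 rose by 0.81 (standard error 0.11). CEBPA, which encodes C/EBPα, was at 98.2 and 72.9 FPKM, and its log2 fold change of −0.39 (standard error 0.24, edgeR adjusted p = 0.174) did not pass. EGR2 rose by 7.36 (standard error 0.30) and EGR1 by 4.04 (standard error 0.11). EGR2 passed the FPKM minimum through the PMA libraries alone. Nothing here tests whether these factors act on the members.

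As a check of the cell type, monocyte and macrophage markers summed to 187 to 204 FPKM without PMA and 472 to 531 with it. Of 18 such markers, 10 were tested, 6 were higher, 1 lower (CD33) and 3 not called (ITGAM, CD4 and LYZ), and 2 of the 10 passed the minimum through 1 group alone. CD14, CD163, MRC1, CD36, MARCO, VSIG4 and C1QA had a mean under 1 FPKM in both groups and were not tested. The rise of the sum therefore does not stand for every marker of the list. T cell markers, 3 of 8 in the table, summed to at most 0.246 FPKM. Megakaryocyte and erythroid markers summed to at most 1.80, fibroblast and epithelial markers to at most 4.17 and B cell markers to between 2.38 and 8.36, where 1 gene, PAX5, rose by 3.59 (standard error 0.15) and passed the minimum through the PMA libraries alone. Of 12 progenitor markers, 7 were tested, 5 were higher (FLT3, SOX4, MEF2C, BCL2 and CD44), 1 lower (MYB) and 1 not called, and FLT3 passed the minimum through the PMA libraries alone. They summed to 156 to 176 FPKM without PMA and 154 to 191 with it, while CD34 and KIT were under 0.1 FPKM in both groups. The estimated counts summed to between 61547700 and 88227830 per library.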

How the data were processed

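Poly(A) RNA of 3 untreated and 3 PMA-treated THP-1 libraries was sequenced by the authors as read pairs of 150 bases. They deposited an estimated count and an FPKM value per gene and library, on hg38. Values of the deposited estimated count column are whole, not scaled to library size, and low ones pile up at multiples of 4, so 1 count is not 1 read pair. The deposited FPKM values are scaled to transcript length and library size. Aligner, counting tool and strand setting are not stated in the sources used, and DESeq2 is named by the submitters' processing notes. Here 35424 features were reduced to 35042, 1 per name, and tested with edgeR 4.0.16 in R 4.3.3 (TMM factors 0.986 to 1.023, treatment as the only term). Benjamini-Hochberg adjustment ran over all genes tested. Standard errors are approximate (absolute log2 fold change over the root of the F statistic). Alternatives used limma 3.58.1, DESeq2 1.42.0, other filters and scalings, a GC offset from GENCODE v44 transcripts, a replicate block and leaving out libraries. Equal replicate numbers were used as pairs only in the replicate block. The main fit and the exact permutation tests ignored any pairing. The deviations of same-numbered libraries from their group means correlated at 0.49, 0.14 and 0.11. However, untreated replicate 2 correlated best with PMA replicate 3 (0.28) and untreated replicate 3 with PMA replicate 2 (0.21), so a pairing of these libraries is uncertain. The edgeR fit was tested on simulated data. Members, lists and tests were chosen with earlier results of these data known. Named genes were all members, the 2 largest called rises and falls of a list, list genes above 100 FPKM, and tested genes within 50 kb of a member. CTSC, SERPINB1, RNH1, CST3, CAMP, PRSS57, BPI, EPX, PRG3, RUNX1, CEBPA, ITGAM, CD4, GUSB, GAA, CYBA, CD34, KIT, ARID3A and ENSG00000254979 were named after their values were seen. So were CD14, CD163, MRC1, CD36, MARCO, VSIG4, C1QA and XYLT2. A gene that this rule would name is not reported here.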

Additional observations from a re-analysis of the deposited data

How the results depend on the processing

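The 6 lower members were called under all 17 alternatives, with 6 to 8 members lower. Without any 1 library the count stayed at 6 lower, and the higher count ranged from 0 to 1, since PRG2 left the test without a PMA library. With a mean FPKM of at least 5, 0 members were higher, and 2433 genes were higher and 2457 lower of 7142 tested, since fewer genes entered. Leaving out 1 library gave 3369 to 3980 genes higher and 3277 to 4023 lower. With the replicate block 4657 genes were higher and 4758 lower, with 1 member higher and 6 lower, and the block changed no call of a member. With PMA replicates 2 and 3 added together, 6 members were lower and 1 higher. The ratio of the summed serine protease FPKM (PMA over untreated) ranged from 0.143 to 0.165 without 1 library. CST7 was called lower by DESeq2, by limma with a pseudocount of 1 (−0.57) or 0.1 (−1.93), and without PMA replicate 1, all with no filter on low values. Leaving the filter out together with a further alternative, for PRG2, MPO and CST7, was chosen after seeing the data. The fit with no filter moved the median of the genes of the main test by −0.15, DESeq2 by −0.13 and the stricter minimum by 0.12, so the values of MPO and CST7 include such a shift. Depth limits CST7, PRG2, MPO and LYZ, whose counts were at most 343 in any library.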

Other observations

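Of 20 genes of secondary and tertiary granules, 16 were in the table and 5 tested, of which 3 were higher, 1 lower and 1 not called (CYBA). CHI3L1, a chitinase-like protein that macrophages also secrete, had 151, 138 and 125 FPKM without PMA and 1906, 1581 and 1531 with it, and rose by 3.63 on the log2 scale (standard error 0.12, edgeR adjusted p = 2.6e-07). MMP9, gelatinase B, rose by 3.71 (standard error 0.12) and CYBB, the NADPH oxidase subunit, by 5.19 (standard error 0.19), the latter passing the FPKM minimum through the PMA libraries alone. SLPI, an inhibitor of elastase and cathepsin G, fell by 0.68 (standard error 0.22). CAMP, which encodes cathelicidin, was at 0.671 to 1.31 FPKM without PMA and 0.0660 to 0.313 with it and was not tested.

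Among 16 genes of peroxidases and of heme supply, which myeloperoxidase needs, 12 were tested, 1 was higher, 8 lower and 3 not called. ALAS1, the first enzyme of heme synthesis, rose by 2.32 (standard error 0.09), from 38.2 to 186 FPKM. CALR, a chaperone that binds newly made myeloperoxidase, fell by 0.48 (standard error 0.09), from 516 to 361 FPKM. Of the RNase A family, RNH1, the cytosolic inhibitor of these enzymes, was at 27.5 and 26.8 FPKM, differed by 0.00 on the log2 scale (standard error 0.11) and did not pass. Among cystatins CST3, the most abundant, was at 18.4 and 18.7 FPKM and did not pass either.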
